A study of Gallus gallus with 4 samples.

Results

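The genes described here belong to the WNT pathway and act at successive steps of it. They are the ligand WNT16, the secreted agonist RSPO2 and its receptor LGR6, the secreted antagonists SFRP4 and SOSTDC1, the membrane ubiquitin ligase RNF43, the cytoplasmic regulators NKD1 and APC2, and the target gene SP5. They were chosen by symbol, with the result of the comparison known, and are 9 of the 17108 genes listed in the authors' deposited table. All 9 had a line and all 9 were among the 12574 genes with an adjusted p, so no member was lost to the authors' filter on low means.

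The cells came from the trunk neural tube of chick embryos. Plasmids were introduced by electroporation in the egg at HH11, stage 11 on the Hamburger-Hamilton scale of chick development. The Hoxb8 group (n = 2 libraries) received Hoxb8-pCIG at 1 µg/µl mixed with the empty plasmid pCIG at 1 µg/µl, and the pCIG control group (n = 2 libraries) received pCIG alone at 2 µg/µl. Both groups therefore carried pCIG, which marks cells with green fluorescent protein (GFP), and in both groups pulses were given on both sides. GFP-positive tissue was dissected at 18 hours and dissociated, and GFP-positive cells were sorted away from dying cells. RNA was linearly amplified as cDNA before sequencing. Hoxb8 was supplied from a plasmid, so its dose per cell is not that of the endogenous gene. The labels do not say how many embryos went into a library, and the spread between libraries may be technical. The table has no line under the symbol HOXB8. Only 1432 of the 17108 genes carry a symbol, so HOXB8 may be listed by identifier alone. The transfected gene was not used to check the labels.

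In canonical WNT signalling a secreted ligand binds a Frizzled receptor and an LRP co-receptor. This stops a cytoplasmic complex built on APC and Axin proteins from sending beta-catenin for destruction, and beta-catenin then enters the nucleus and switches on target genes. RNF43 removes Frizzled from the cell surface, and R-spondins bound to LGR receptors hold it back. Several targets feed back on the pathway. In the vertebrate neural tube, WNT ligands from the dorsal midline are known for sustaining progenitor division and dorsal identity, and WNT signalling in the tail bud is known for trunk elongation.

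The authors' deposited table gives 1 mean per gene over the 4 libraries, written to 15 significant digits, together with a moderated log2 fold change, its standard error and p-values. A mean written that finely limits the whole numbers of reads behind it, and the fold change and standard error narrowed them further. For WNT16, RSPO2, SFRP4, SOSTDC1, LGR6 and RNF43 the mean alone allowed 1 set of reads. The reads of each library were recovered for 11756 of the 11804 tested genes with a mean up to 20000, and for all 9 WNT genes. Sets of reads were kept where refitting returned the authors' deposited log2 fold change within 2e-07. The largest gap, 1.99e-07, follows from that limit. Some genes with low means had no such set, and their reads came from the mean alone. The Hoxb8 libraries are called A and B below, and the pCIG control libraries C and D. The table does not tie these letters to the replicate numbers 1 and 2 of the labels. Values per library are normalised read counts, which are reads divided by the library's size factor. The size factors were 1.05 for each Hoxb8 library and 0.958 and 0.954 for the control libraries. A normalised read count is not divided by gene length, so levels are not compared between genes.

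The members had between 132 and 10873 reads in a library. The exact 95% Poisson interval around a single value spanned 17.5% of it to either side at the fewest reads and 1.88% at the most. These intervals cover counting error only.

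In the Hoxb8 libraries 4 members were called higher (WNT16, RSPO2, SFRP4 and SOSTDC1) and 2 were called lower (LGR6 and APC2). RNF43, NKD1 and SP5 did not pass. Genes are called where the authors' deposited table has an adjusted p below 0.05, and 15.2% of all tested genes were called in either direction, 8.72% higher and 6.49% lower. Because the same comparison served to choose the members, these counts describe the choice and are not evidence about the pathway. The calls depend on the spread the authors' scores assume. Divided by their own central spread of 1.69, the scores gave 0 called members and 3 with an unadjusted p under 0.05. Adjusted p then ran from 0.0857 for APC2 to 0.698 for SOSTDC1 among the 6. The share of all tested genes called on these divided scores is not given here. The 2 Hoxb8 libraries lay on the same side of both control libraries for every member, above them for 6 and below them for 3. Groups were separated in this way for 56.6% of the 11756 genes with recovered reads, with Hoxb8 above the control for 29.3% and below it for 27.3%, so separation alone says little with 2 libraries in each group.

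**Figure D1:**
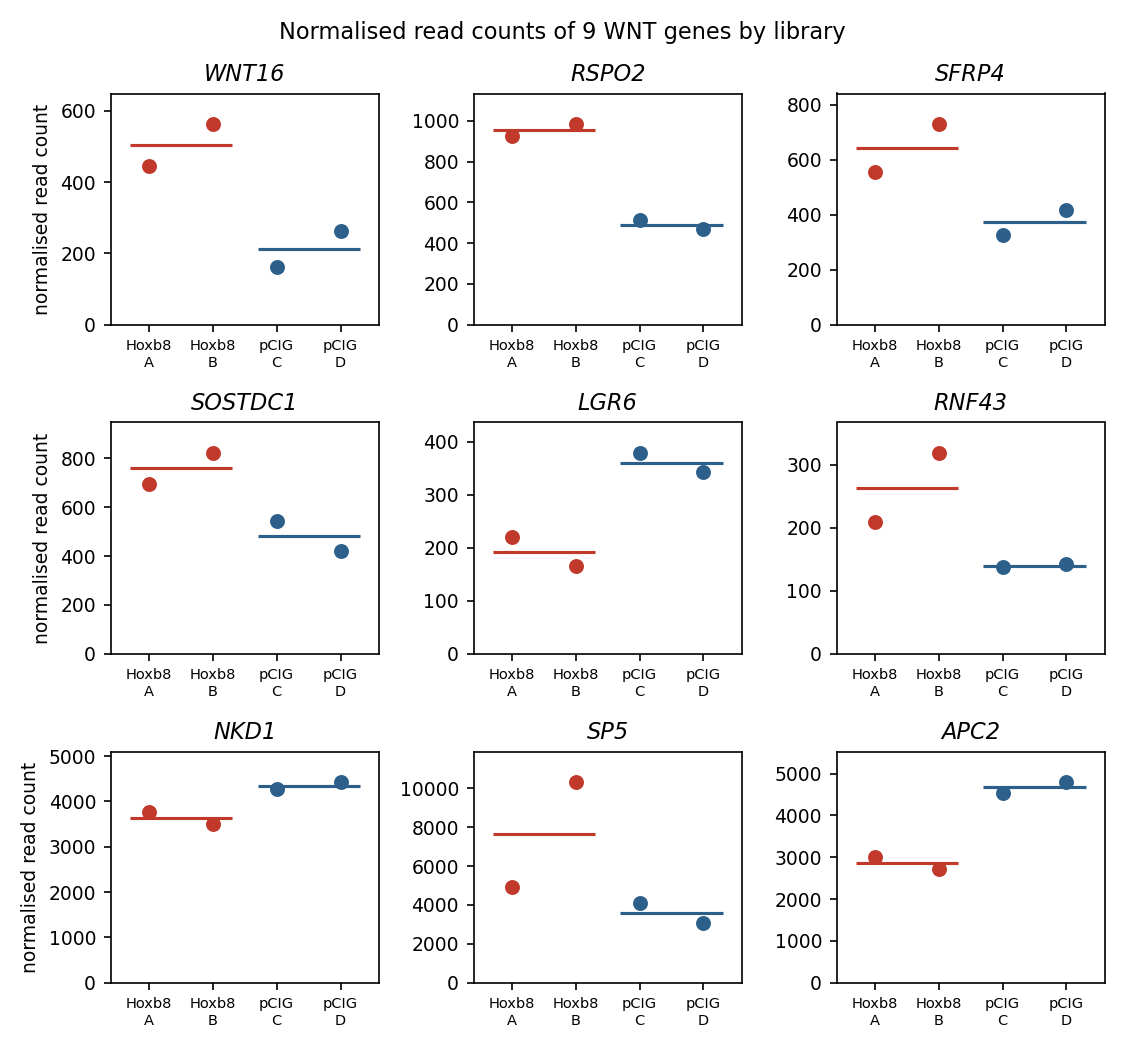
Normalised read counts of the 9 WNT genes in each library, with 1 panel per gene, each with its own linear axis from 0. Points are the Hoxb8 libraries A and B and the pCIG control libraries C and D, and short lines are group means. SP5 shows the widest distance between the Hoxb8 libraries, 4947 in A and 10342 in B.

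WNT16, a secreted WNT ligand, had 445 and 564 normalised counts in Hoxb8 libraries A and B, against 161 and 263 in control libraries C and D. Both Hoxb8 values lay above both control values, and the lower Hoxb8 library exceeded the higher control library 1.69-fold. The group means were 505 in Hoxb8 and 212 in the control, an unmoderated ratio of 2.38-fold or 1.25 on the log2 scale. The authors' deposited table gives WNT16 a moderated log2 fold change of 0.94 ± 0.23 (SE) with an adjusted p of 0.000752. WNT16 was the member with the widest distance between its control libraries, 1.64-fold, a distance larger than that of 90.4% of the 500 genes nearest to it in mean. The log2 ratio was 1.65 without control library D and 0.94 without control library C. WNT16 was also the only gene of the ligands and secretion group of the pathway list that the table holds under its symbol with an adjusted p.

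RSPO2, an R-spondin that amplifies WNT signals through LGR receptors, had 924 and 986 normalised counts in the Hoxb8 libraries, against 512 and 469.7 in the control libraries. Libraries of a group lay close together and the groups stood well apart. The ratio of group means was 1.95-fold, or 0.96 on the log2 scale, and it stayed between 0.90 and 1.02 when any 1 library was left out. The authors' deposited table gives a moderated log2 fold change of 0.84 ± 0.18 (SE) with an adjusted p of 5.27e-05.

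LGR6, one of the R-spondin receptors, went the other way. It had 219 and 166 normalised counts in the Hoxb8 libraries, against 379 and 342 in the control libraries. The group mean was 46.6% lower in Hoxb8, an unmoderated log2 ratio of -0.91 that ranged from -1.12 to -0.72 with 1 library left out. The authors' deposited table gives a moderated log2 fold change of -0.69 ± 0.23 (SE) with an adjusted p of 0.0227. With the median of genes over a mean of 10000 set to 0, LGR6 had -0.56 with an adjusted p of 0.0694 and lost its call. Within these libraries an R-spondin was thus called higher while a receptor for R-spondins was called lower.

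SFRP4, a secreted Frizzled-related protein that binds WNT ligands outside the cell, had 553 and 731 normalised counts in the Hoxb8 libraries, against 327 and 417 in the control libraries. The groups did not overlap, and the nearest libraries of the 2 groups differed 1.33-fold. The unmoderated ratio was 1.73-fold, and the authors' deposited table gives a moderated log2 fold change of 0.64 ± 0.21 (SE) with an adjusted p of 0.0174.

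SOSTDC1, a secreted protein that binds LRP co-receptors and also acts as a BMP antagonist, had 697 and 824 normalised counts in the Hoxb8 libraries, against 545 and 422 in the control libraries. Its groups stood apart by 1.28-fold between the nearest libraries. The unmoderated ratio was 1.57-fold, and the authors' deposited table gives a moderated log2 fold change of 0.55 ± 0.19 (SE) with an adjusted p of 0.0339. SOSTDC1 had the adjusted p closest to the threshold among the called members.

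RNF43, the ubiquitin ligase that clears Frizzled from the membrane and is itself a known WNT target, lay just outside the threshold. It had 209 and 320 normalised counts in the Hoxb8 libraries, against 138 and 143 in the control libraries. The control libraries were nearly equal, while Hoxb8 library B stood 1.53-fold above library A. The unmoderated log2 ratio was 0.91, close to that of RSPO2, but 0.58 without Hoxb8 library B. The authors' deposited table gives RNF43 a moderated log2 fold change of 0.63 ± 0.25 (SE) with an adjusted p of 0.0614. The same centring on genes over 10000 gave RNF43 0.76 with an adjusted p of 0.0166. SOSTDC1 just inside the threshold and RNF43 just outside it thus had similar moderated fold changes, and RNF43 had the larger standard error and the lower mean.

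APC2, a relative of the APC tumour suppressor that takes part in beta-catenin degradation and is known mainly from neural tissue, had 3002 and 2716 normalised counts in the Hoxb8 libraries, against 4546 and 4808 in the control libraries. The group mean was 38.9% lower in Hoxb8. The unmoderated log2 ratio of -0.71 held within -0.78 and -0.64 when any 1 library was left out. The authors' deposited table gives a moderated log2 fold change of -0.67 ± 0.13 (SE) with an adjusted p of 1.14e-05, the smallest of the members.

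NKD1, a Dishevelled-binding inhibitor that is itself a WNT target, had 3766 and 3504 normalised counts in the Hoxb8 libraries, against 4265 and 4435 in the control libraries. Both Hoxb8 libraries lay below both control libraries, and the group mean was 16.4% lower in Hoxb8. The authors' deposited table gives a moderated log2 fold change of -0.24 ± 0.13 (SE) with an adjusted p of 0.201, so NKD1 was not called.

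SP5, a zinc finger transcription factor and a direct target of beta-catenin in vertebrates, had 4947 and 10342 normalised counts in the Hoxb8 libraries, against 4125 and 3097 in the control libraries. Library B held most of the difference. The unmoderated ratio of group means was 2.12-fold, the second largest among the members after WNT16, yet the nearest libraries of the 2 groups differed by only 1.20-fold. Without Hoxb8 library B the log2 ratio was 0.45, and without Hoxb8 library A it was 1.52, around a value of 1.08 with all libraries. The authors' deposited table gives SP5 a moderated log2 fold change of 0.52 ± 0.27 (SE) with an adjusted p of 0.187, so SP5 was not called.

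**Figure D2:**
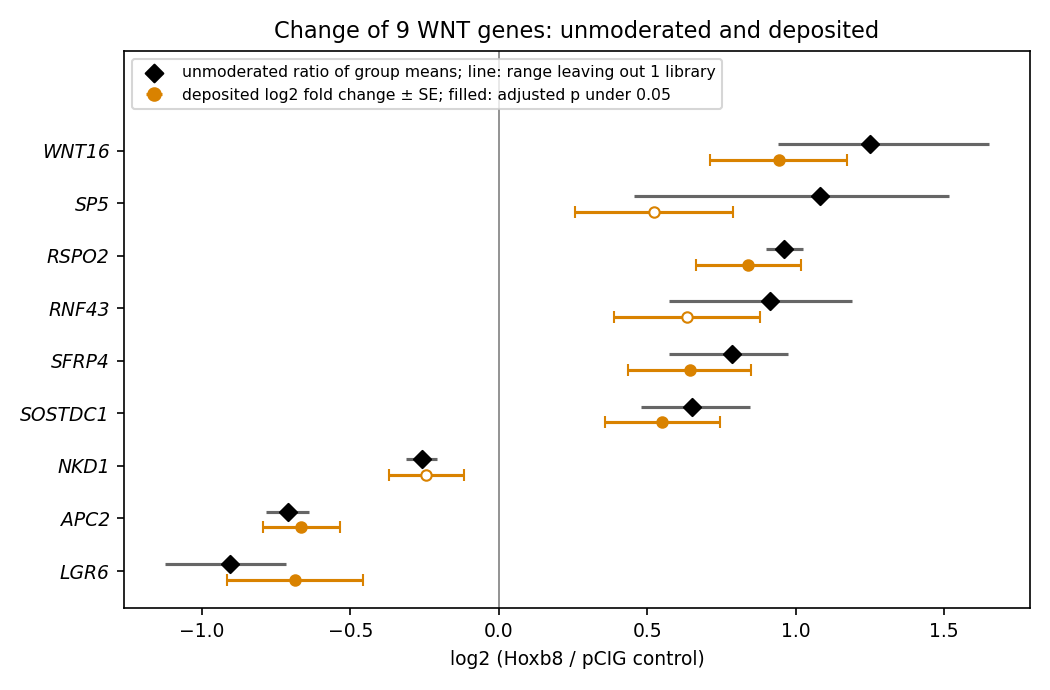
Log2 fold change of each WNT gene, Hoxb8 over pCIG control. Diamonds are unmoderated ratios of group means, with lines from the lowest to the highest value when 1 library is left out. Orange symbols are the moderated values of the authors' deposited table with their standard errors, filled where the adjusted p is under 0.05. SP5 has the longest line, 0.45 to 1.52, and its moderated value of 0.52 lies well below its ratio of 1.08.

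SP5 and NKD1 are both counted among the feedback targets of beta-catenin. Neither was called, and the difference between them was not tested. They differed in how far the libraries of a group lay apart. Hoxb8 library B held 2.09-fold more SP5 than library A, a distance larger than that of each of the 500 genes nearest in mean. Control library C held 1.33-fold more SP5 than library D, a distance larger than that of 99.4% of those genes. The other members lay nearer to genes of their own level. Their distance between the Hoxb8 libraries exceeded that of 23.2% of the genes nearest in mean for RSPO2, the lowest of the 8, and 82.1% for RNF43, the highest. Between the control libraries this share ran from 9.44% for RNF43 to the 90.4% of WNT16. RNF43 thus had a wide distance within Hoxb8 and a narrow one within the control.

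**Figure D3:**
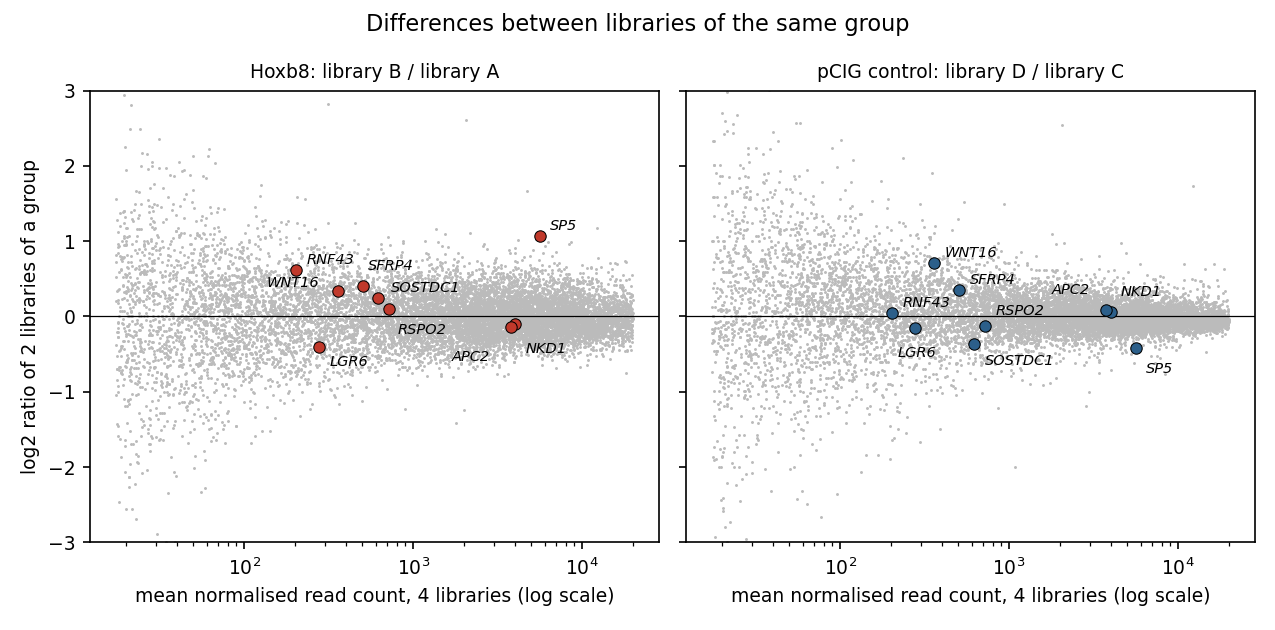
Log2 ratio between the 2 libraries of a group against mean normalised read count on a log scale, for Hoxb8 at the left and pCIG control at the right. Grey points are all genes with recovered reads, and a few lie beyond the plotted range of the ratio. SP5 stands outside the grey cloud at its level in Hoxb8, with B 2.09-fold above A, and near its edge in the control.

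The members also differed in how far they stood from other genes of their own level. Genes with means between 200 and 800, where WNT16, RSPO2, SFRP4, SOSTDC1, LGR6 and RNF43 lie, were called higher in 18.9% of cases and lower in 2.99%. Among genes with means between 3500 and 6000, where NKD1, SP5 and APC2 lie, 4.98% were called higher and 7.16% lower. In the authors' deposited table, the median of the moderated log2 fold changes was 0.18 for the 500 genes nearest to WNT16 in mean and 0.15 for those nearest to RSPO2. The same median was 0.19 for the genes nearest to LGR6, which itself lay below 0. It was -0.021 for the genes nearest to APC2. Set against genes of like level instead of 0, WNT16, RSPO2, LGR6 and APC2 kept an adjusted p under 0.05. SFRP4 then had a log2 fold change of 0.47 with an adjusted p of 0.125, and SOSTDC1 had 0.39 with an adjusted p of 0.190. Both lost their call, and RNF43, NKD1 and SP5 remained uncalled.

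**Figure D4:**
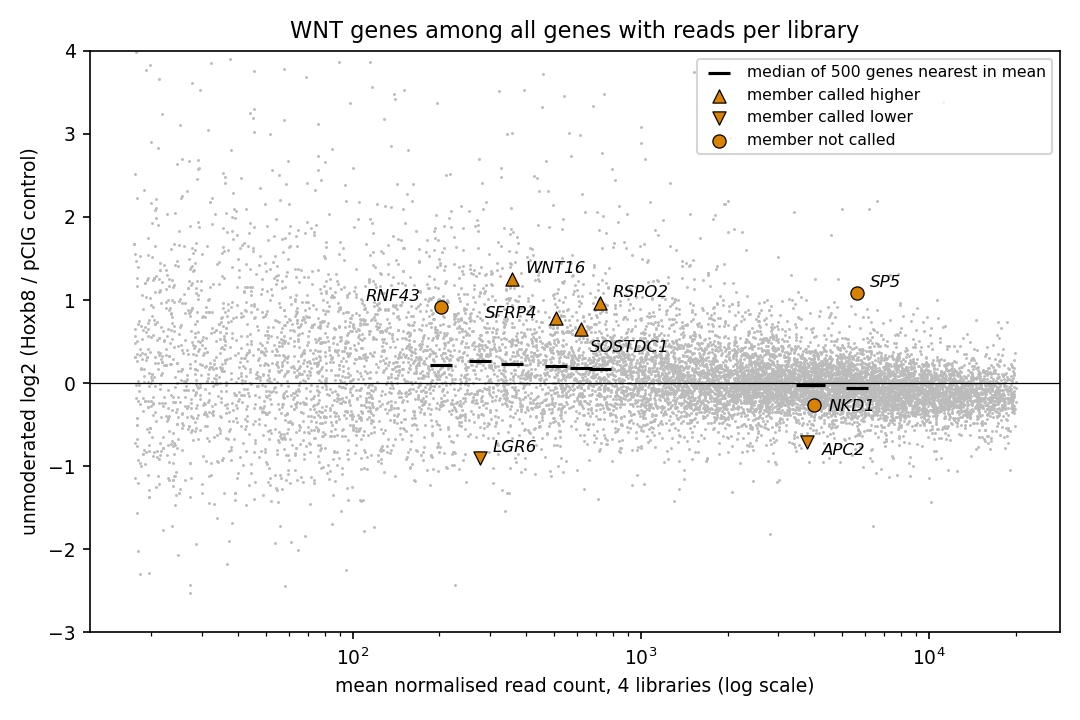
Unmoderated log2 ratio of Hoxb8 over pCIG control against mean normalised read count on a log scale. Grey points are genes with recovered reads, a few beyond the plotted range, and black dashes are medians of the 500 genes nearest in mean to each member. Triangles are called members and circles members not called. The dashes lie above 0 at the level of WNT16, RSPO2, SFRP4, SOSTDC1, LGR6 and RNF43, and near 0 or below it at the level of NKD1, SP5 and APC2.

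The rest of the pathway was described with a list of 152 WNT genes, chosen like the members with earlier results known. Of these, 22 had a line under their symbol and 21 had an adjusted p; TCF7L1, a nuclear effector, was listed at 0. No Frizzled or LRP receptor and no planar polarity gene of the list was among the 21. Only 1432 of the 17108 genes carry a symbol, so a gene missing here may be listed by identifier alone. Besides the members, 12 genes remained, of which 2 were called higher, 1 was called lower and 9 did not pass, where 8.72% of all tested genes were called higher and 6.49% lower. The 12 had a median moderated log2 fold change of -0.021 by the authors' deposited table, against -0.0053 over all tested genes. The median over the members was 0.55. It describes their choice with this comparison known, so it is no measure for the 12 to be held against.

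CDX2, a caudal homeobox gene known as a WNT target in the tail bud, had 214 and 383 normalised counts in the Hoxb8 libraries, against 69.9 and 97.5 in the control libraries. Its ratio of 3.56-fold exceeded that of every member, and the authors' deposited table gives a moderated log2 fold change of 1.17 ± 0.26 (SE) with an adjusted p of 0.000116. Hoxb8 library B held 1.79-fold more CDX2 than library A. The unmoderated log2 ratio of CDX2 was 1.83 with all libraries, 1.35 without library B and 2.19 without library A. SHISA2, which holds back the maturation of Frizzled receptors, had 2190.1 and 4205 normalised counts in the Hoxb8 libraries, against 1932 and 2075 in the control libraries. The authors' deposited table gives SHISA2 a moderated log2 fold change of 0.57 ± 0.19 (SE) with an adjusted p of 0.0288. As for SP5, library B carried most of the SHISA2 difference: the unmoderated log2 ratio was 0.67 with all libraries, 0.13 without library B and 1.07 without library A.

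TRABD2A, a membrane protease that cuts WNT ligands, had 4483 and 6153 normalised counts in the Hoxb8 libraries, against 8987 and 8388 in the control libraries. The authors' deposited table gives it a moderated log2 fold change of -0.65 ± 0.15 (SE) with an adjusted p of 0.000225. NDP, a non-WNT ligand of a Frizzled receptor, had 2672 and 2908 normalised counts in Hoxb8, against 3931 and 3341 in the control, with an adjusted p of 0.0636 in the authors' deposited table. DKK2 and SOST, secreted LRP antagonists, were not called either. DKK2 had 242 and 119.8 normalised counts in Hoxb8, against 204 and 160.4 in the control. Its Hoxb8 libraries differed in the opposite direction to those of SP5, with a log2 ratio of B over A of -1.01. SOST, the closest relative of SOSTDC1, had 91.1 and 101 in Hoxb8, against 76.2 and 89.1 in the control. Of the antagonists on the list, 8 were tested, with 3 called higher (SFRP4, SOSTDC1 and SHISA2), 1 called lower (TRABD2A) and 4 not passing. SFRP4 and SOSTDC1 are members chosen with their result known and lost their call against genes of like level. Over all tested genes 15.2% were called, and at means of 200 to 800, where both lie, 18.9% were called higher. TPBG, IGFBP4, AMER2, CTNNBIP1, PYGO2 and TLE1 completed the list with adjusted p between 0.275 and 0.896 in the authors' deposited table.

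**Figure D5:**
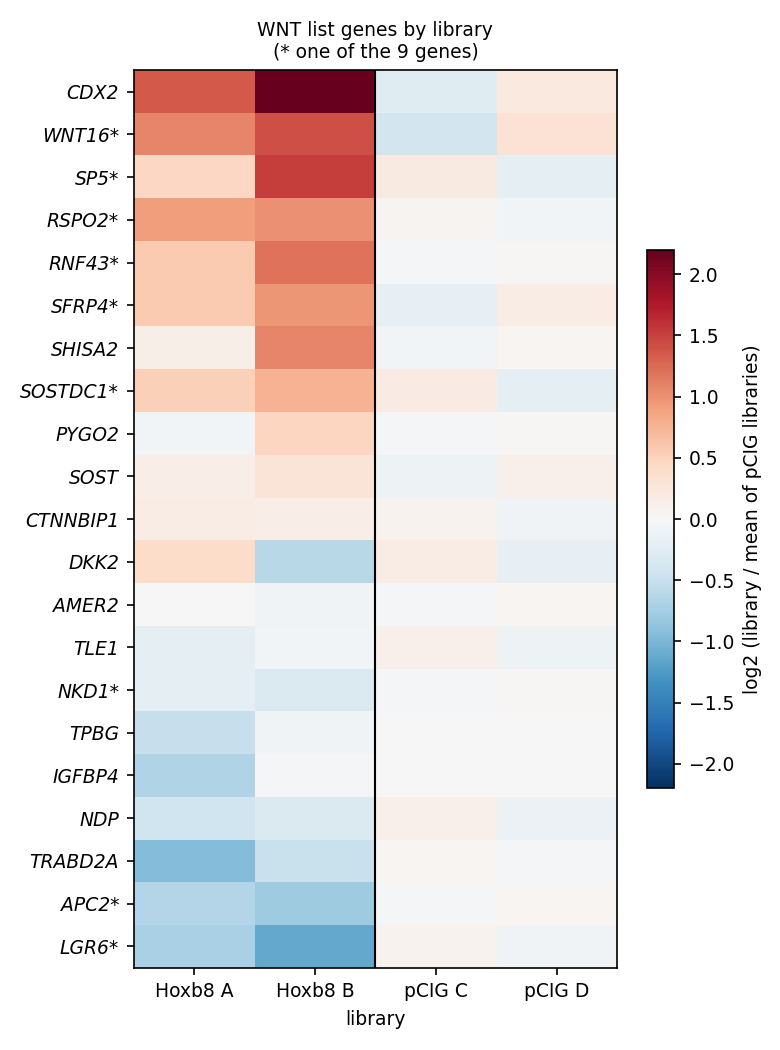
Log2 of the normalised read count of each library over the pCIG control mean, for the 21 WNT genes with an adjusted p. Genes run from the highest to the lowest unmoderated ratio of group means. Hoxb8 libraries A and B are at the left and control libraries C and D at the right. CDX2 has the highest value in each Hoxb8 column. Library B lies above library A for 15 of the 21 genes, among them SP5, SHISA2, CDX2 and RNF43.

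The 2 Hoxb8 libraries differed along the list. Library B exceeded library A for 6 of the 9 members and for 15 of the 21 WNT genes with reads, or 71.4%, while it did so for 48.9% of all genes with recovered reads. By part of the list, it did so for 7 of 8 antagonists and 2 of 3 agonists and their receptors. It also did so for 2 of 2 nuclear genes, 2 of 2 targets, and the 1 gene each of the ligand and receptor turnover parts. Among AMER2, APC2, CTNNBIP1 and NKD1, grouped in the list as cytoplasmic, it did so for none. The log2 ratios of B over A of these cytoplasmic genes were small, from -0.145 for APC2 to -0.019 for CTNNBIP1. Genes of 1 library are measured together, so this is a description of 2 libraries. The list was chosen with earlier results known. Its share was not set against genes of like level or of like direction, so it is not shown to be particular to WNT genes. The median size of the log2 difference between libraries over all genes was 0.206 within Hoxb8 and 0.143 within the control.

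Other markers were read from lists in the same way. No line under its symbol was found for any of 12 neural progenitor markers, 11 neuron markers, 7 neural crest markers or 4 floor plate and notochord markers. With 1432 of 17108 genes carrying a symbol, such markers may be listed by identifier alone. The labelled tissue could not be checked by these markers. Of 11 roof plate and dorsal neural tube markers, 2 were tested. LMX1A, which specifies the roof plate, had 910.4 and 836 normalised counts in Hoxb8, against 1974 and 1914 in the control. PAX3, a dorsal neural tube factor, had 10147 and 9679 in Hoxb8, against 19183 and 17083 in the control. Their summed level was 10515 to 11058 in the Hoxb8 libraries and 18998 to 21158 in the control libraries, and both were called lower in the authors' deposited table. Of 11 endothelium and blood markers, 2 were tested, with a summed level of 2865 to 4167 in Hoxb8 and 2450.2 to 2615 in the control. The 2 genes did not move together. By group means LMO2 was higher in Hoxb8, 1561 against 491, while PECAM1 was not, 1954 against 2042. LMO2 had 1416 and 1706 in Hoxb8, against 474 and 507 in the control. It was called higher in the authors' deposited table, with an adjusted p of 4.5e-16. PECAM1 had 2750.2 and 1159 in Hoxb8, against 1976 and 2107 in the control, so it differed between the Hoxb8 libraries in the opposite direction to SP5. The surface ectoderm marker GRHL2 had 67.4 and 68.5 in Hoxb8, against 114 and 132 in the control, and KRT8 was listed at 0. The somite marker UNCX had 148 and 196 in Hoxb8, against 136 and 234 in the control. PECAM1, GRHL2 and UNCX were not called, with adjusted p of 0.963, 0.223 and 0.907 in the authors' deposited table. The part of these cell types in the WNT values was not tested. In bulk RNA, fewer cells of a type and less RNA per cell cannot be told apart.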

How the data were processed

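The mRNA libraries of 2 Hoxb8 and 2 pCIG control samples were sequenced after linear amplification, per the labels' protocols. Subread, featureCounts, DESeq2, DESeq and the build galGal4 are listed in the submitters' processing notes, without roles or versions. Gene identifiers are those of Ensembl release 85. Whether counting used strand is not given in the sources used here. In the table Hox is compared with WT, read here as pCIG control because the labels have no further group.

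The authors deposited a signal per gene, the mean over libraries of size-factor-normalised counts, per the file headers and the values. The authors' fold changes and standard errors are on the log2 scale and are moderated toward 0. The authors' score is the fold change over its standard error, and the authors' deposited p-values are adjusted over 12574 genes by the Benjamini-Hochberg method. No values per library are in the table.

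Whole reads per library were sought from each mean, within a range set by the deposited fold change and standard error. A negative binomial fit with a normal prior on the fold change selected among the sets. For each set the fit's dispersion, its term for spread between libraries, was solved so that the deposited standard error was met. A set was kept where the fit then returned the deposited fold change within 2e-07. For some genes with low means where no set passed, the mean alone was used. The method was tested on simulated data. Of tested genes with a mean up to 20000, 99.6% had 1 solution. Which libraries are Hoxb8 follows from the sign of the authors' own fold change for genes with a single read. That fit served only to find and check the recovered reads. The table holds no counts per library, and the recovered reads were not put through a count model to test for differences. Mean total normalised counts were 79237283 per library.

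The genes named are the 9 members and every tested gene of the WNT list. The members and lists were chosen with earlier results of these data known. Further genes named in the closing observations were chosen after their values were seen. Alternatives were the filter on the mean, the threshold, 3 centrings, division of the scores by their spread, unmoderated ratios and leaving out each library. Python 3.11.15, numpy 2.4.6, scipy 1.17.1, pandas 2.3.3, numba 0.67.0 and matplotlib 3.10.9 were used.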

Additional observations from a re-analysis of the deposited data

How the results depend on the processing

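Of the 9 members, 4 were called higher and 2 lower in Hoxb8, and these counts were the same with no filter on the mean, with a mean of at least 50 and with the median of all genes set to 0. Those settings could change little, because every member had a mean of at least 202 and that median was -0.0053. At an adjusted p under 0.1, RNF43 and, outside the members, NDP were called as well. Against genes of like level 2 members were called higher. With the median of genes over 10000 set to 0, a shift of -0.12 on the log2 scale, 1 member was called lower. LGR6 then had -0.56 with an adjusted p of 0.0694, and RNF43 was called at 0.76 with 0.0166. At an adjusted p under 0.01, 2 members were called higher and 1 lower, and 3 genes of the whole list were called higher. With the authors' scores divided by their central spread of 1.69, 0 members and 0 list genes were called in either direction, although 3 members and 5 list genes had an unadjusted p under 0.05. The cause was not tested. For settings that differ from those of the authors' deposited table, the share of all tested genes called is not given here. Every member kept its direction under the 3 centrings. The uncalled genes that changed sign were DKK2, at 0.00018 with the median of all genes and 0.12 with genes over 10000 set to 0, and, under the second of these centrings alone, AMER2 at 0.087 and TLE1 at 0.0057. Leaving out 1 library gave ratios without a test. No paired analysis was possible because the recovered libraries are not tied to the replicate numbers of the labels. The planned tests with count models were not run.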

Other observations

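Differences as wide as that of SP5 between the 2 Hoxb8 libraries were rare. Of 9423 genes with recovered reads and a mean of at least 200, 34 (0.361%) differed at least 2-fold between Hoxb8 libraries A and B, 22 of them higher in B and 12 higher in A. Between the control libraries 47 (0.499%) did so. Of these genes, 878 had a symbol, and 5 of those differed at least 2-fold between the Hoxb8 libraries; the following were picked after their values were seen. Beside SP5, the genes higher in B were C1QL1, a secreted C1q-like protein with 234 and 555 normalised counts in Hoxb8 libraries A and B against 259 and 211 in the control libraries, and C7orf55, with 1078 and 2406 in Hoxb8 against 1016 and 942 in the control. The genes higher in A were the endothelial adhesion molecule PECAM1, given above, and CBX7, a Polycomb protein with 419.6 and 205 normalised counts in Hoxb8 against 240.1 and 500.1 in the control. CBX7 thus differed at least 2-fold within the control as well. C7orf55 was the single gene of these 5 that the authors' deposited table calls, with an adjusted p of 0.0214.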
